A study of Mus musculus with 25 samples.

Results

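Aldehyde dehydrogenases are NAD(P)+-dependent enzymes that oxidise aldehydes, which arise from lipid peroxidation, alcohol, amino acids and vitamin A, to carboxylic acids. The genes described here are the 9 listed by symbol, Aldh1a1, Aldh1a3, Aldh1a7, Aldh2, Aldh3a1, Aldh3a2, Aldh3b1, Aldh7a1 and Aldh9a1, out of 21106 genes measured in the esophagus of mouse pups and 19942 in that of adult mice. All 9 had values in both experiments and passed the filter on low values in both. They were followed across 7 genotype groups: wild type at each age, and mice with NRF2 mutated or KEAP1 deleted in squamous cells.

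NRF2 (gene Nfe2l2) is a transcription factor that switches on detoxification and glutathione genes, and KEAP1 is the adaptor protein that marks NRF2 for degradation. Several aldehyde dehydrogenase genes, Aldh3a1 among them, are known to respond to NRF2. In stratified squamous epithelium this enzyme family also takes part in 2 other tasks: removal of acetaldehyde after ethanol intake, for which ALDH2 in mitochondria is best known, and oxidation of retinal to retinoic acid by ALDH1A1 and ALDH1A3.

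RNA was taken from whole esophagus and sequenced. Pups were 7 to 10 days old and gave 3 libraries for each of NRF2L30F/L30F::K5Cre, KEAP1flox/flox::K5Cre and wild type. Adults were 6 to 9 weeks old, were taken 1 week after tamoxifen (100 µg per g body weight), and gave 4 libraries for each of NRF2L30F/+::K5CreERT2, NRF2L30F/L30F::K5CreERT2, KEAP1flox/flox::K5CreERT2 and wild type. L30F is a mutation found in human cancers that puts phenylalanine in place of leucine at codon 30 of NRF2. K5 is the keratin 5 promoter, which drives Cre in squamous cells: the pups carried a constitutive Cre and the adults a tamoxifen-inducible one. Muscle, connective tissue and other cells of the esophagus keep their normal alleles and are in the same RNA. The sources used here do not give whether the wild-type mice carried a Cre transgene or whether each library came from a separate animal. The p-values therefore rest on the spread between libraries within genotype groups, estimated separately for the 9 pup and the 16 adult libraries.

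Pup libraries held 18791974 to 19650133 reads assigned to genes. Adult depth differed between genotypes, with 12814894 to 16921613 reads in L30F/+, 10867765 to 11643385 in L30F/L30F and 22484305 to 31344260 in KEAP1-deficient libraries, against 27529872 to 32281399 in wild type. Keap1 had a log2 fold change of -0.46 in KEAP1-deficient pups (SE 0.13, adjusted p = 0.012) and of -0.60 in KEAP1-deficient adults (SE 0.07, adjusted p = 8e-06), each against wild type. The quinone reductase gene Nqo1, a standard NRF2 target, rose in all 5 comparisons with wild type, by 7.01 in L30F/L30F pups, 7.28 in KEAP1-deficient pups, 1.95 in L30F/+ adults, 2.51 in L30F/L30F adults and 2.45 in KEAP1-deficient adults on the log2 scale. Each of the 8 squamous epithelium markers (such as Krt5, Krt14 and Trp63) was detected in every group. In pups thyroid and airway markers (such as Tg and Foxj1) summed to 32300 normalised counts in L30F/L30F library 1 and to at most 138 in the 8 others, and glandular stomach markers summed to 6130 in KEAP1-deficient library 2 and to at most 406 in the others. Leaving out either library ended none of the calls against wild type given below for the 9 genes.

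The starts of these genes are shown first, since NRF2 acts through short DNA elements near its targets. RefSeq promoter windows (GRCm38.p6, the 250 bases before the start site) were used for 5 of the 9 genes: Aldh1a1, Aldh1a7, Aldh3a2, Aldh3b1 and Aldh9a1. The starts of the others among the 9 were not examined. Aldh1a1 and Aldh1a7 are neighbouring copies on chromosome 19 that both rose in mutant pups, and their starts are near-identical: 94 of the last 100 bases match. Capitals mark the 65 bases, from -94 to -30 before the start, that both share without a mismatch; the windows are chr19:20601718-20601967 on the plus strand for Aldh1a1 (the second of 2 listed starts) and chr19:20727557-20727806 on the minus strand for Aldh1a7.
Aldh1a1: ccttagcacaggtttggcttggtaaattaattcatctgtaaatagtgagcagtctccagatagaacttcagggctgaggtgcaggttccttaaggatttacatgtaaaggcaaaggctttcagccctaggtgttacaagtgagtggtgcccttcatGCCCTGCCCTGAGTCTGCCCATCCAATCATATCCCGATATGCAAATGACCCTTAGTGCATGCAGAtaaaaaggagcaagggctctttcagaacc
Aldh1a7: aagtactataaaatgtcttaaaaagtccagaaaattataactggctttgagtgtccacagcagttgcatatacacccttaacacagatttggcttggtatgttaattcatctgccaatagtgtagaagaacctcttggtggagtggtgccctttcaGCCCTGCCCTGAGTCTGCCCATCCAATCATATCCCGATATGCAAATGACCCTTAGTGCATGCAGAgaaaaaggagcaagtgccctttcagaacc
The third sequence is the window of Aldh9a1 (chr1:167349741-167349990, plus strand), shown because it holds the only match among the 5 genes to TGACNNNGC, the core letters of the antioxidant response element that NRF2 binds with small MAF proteins. Capitals mark that match, TGACTAGGC, at -87 to -79.
Aldh9a1: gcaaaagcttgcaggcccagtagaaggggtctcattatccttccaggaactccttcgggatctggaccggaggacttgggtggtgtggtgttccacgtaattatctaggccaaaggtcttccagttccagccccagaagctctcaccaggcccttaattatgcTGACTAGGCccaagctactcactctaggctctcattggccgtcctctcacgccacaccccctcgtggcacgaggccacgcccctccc
Both strands were searched. TGACNNNGC occurred in 10.2% of all 32851 promoter windows. A match is a description of the letters, and a window without one says only that they are not within these 250 bases.

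Aldh3a1 dominated the family's RNA in every group but wild-type pups. Per kilobase of transcript, so that genes of different length can be set side by side, it held 80.6% of the normalised counts of the 21 aldehyde dehydrogenase genes listed in L30F/L30F pups (range 79.5 to 81.9% over 3 libraries) and 82.5% in KEAP1-deficient pups (82.0 to 82.9%), against 3.22% in wild-type pups (2.27 to 4.15%). Aldh8a1 had no adult values, so adult shares and sums are over the other listed genes. In adults the share of Aldh3a1 was 77.7% in L30F/+ (75 to 80.5%), 79.7% in L30F/L30F (77.0 to 82.5%) and 59.6% in KEAP1-deficient esophagus (54.4 to 63.1%), against 74.3% in wild type (72.4 to 76.9%). The share in wild-type adults lay between those of the L30F groups and of KEAP1-deficient adults, while that in wild-type pups was far below both mutant pup groups. The sum of the family per kilobase had a median of 34320 in L30F/L30F pups and 47100 in KEAP1-deficient pups, against 2931 in wild-type pups, and of 23120 in L30F/+, 22710 in L30F/L30F and 10340 in KEAP1-deficient adults, against 18600 in wild-type adults.

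**Figure D1:**
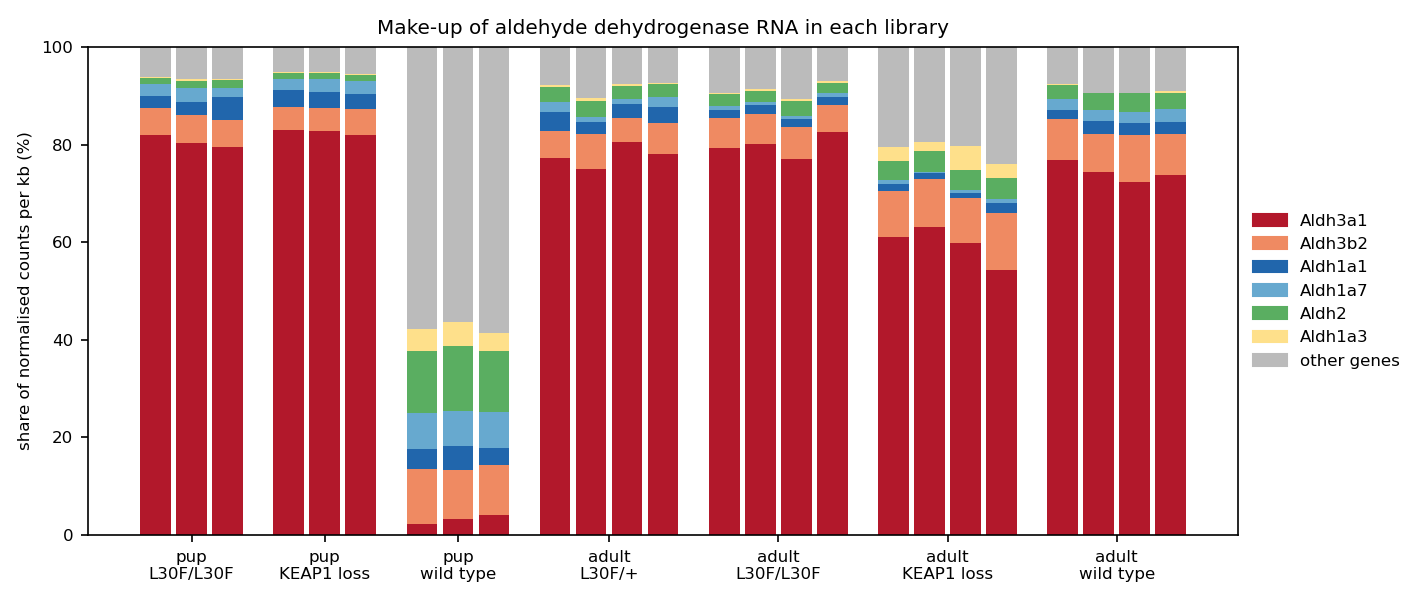
Share of each aldehyde dehydrogenase gene in the family's normalised counts per kilobase of transcript (percent), 1 bar per library, grouped by genotype with each wild type to the right of its mutants. Aldh3a1 takes about the same large part of every bar except those of wild-type pups, where its mean share is 3.22%, and KEAP1-deficient adults, where it is 59.6%.

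The order of the 9 genes per kilobase also differed between groups. In both mutant pup groups the order was Aldh3a1, Aldh1a1, Aldh1a7, Aldh2, Aldh9a1, Aldh3a2, Aldh7a1, Aldh1a3 and Aldh3b1, although the ranges of Aldh1a1 and Aldh1a7, and of Aldh7a1 and Aldh1a3, met in L30F/L30F pups. In wild-type pups Aldh2 was highest (375 to 379 normalised counts per kilobase), followed by Aldh1a7 and Aldh3a2, whose ranges met, while Aldh3a1 (66.4 to 125) was the eighth. In adults Aldh3a1 stood first in all 4 groups and no other of the 9 met its range. Aldh1a3 was the eighth in L30F/L30F adults (63.0 to 95.8 per kilobase) and the fourth in KEAP1-deficient adults (207 to 504), where its range met that of Aldh9a1, against the last place in wild-type adults (19.9 to 52.5), where its range met that of Aldh3b1.

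The pup comparisons asked what mutant NRF2 and KEAP1 loss each do to the young esophagus. Of the 9 genes, 5 rose and none fell in L30F/L30F pups against wild type; of all 21007 genes tested, 39.2% were called in either direction, 22.0% as higher and 17.1% as lower. In KEAP1-deficient pups the same 5 genes rose and 2 fell, where 49.5% of all genes were called, 26.3% as higher and 23.2% as lower. The 5 are Aldh3a1, Aldh1a1, Aldh1a7, Aldh9a1 and Aldh2. The median log2 fold change of the 9 was 0.44 in L30F/L30F and 0.72 in KEAP1-deficient pups, beside -0.03 and -0.05 over all genes. Both comparisons use the same 3 wild-type libraries.

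**Figure D2:**
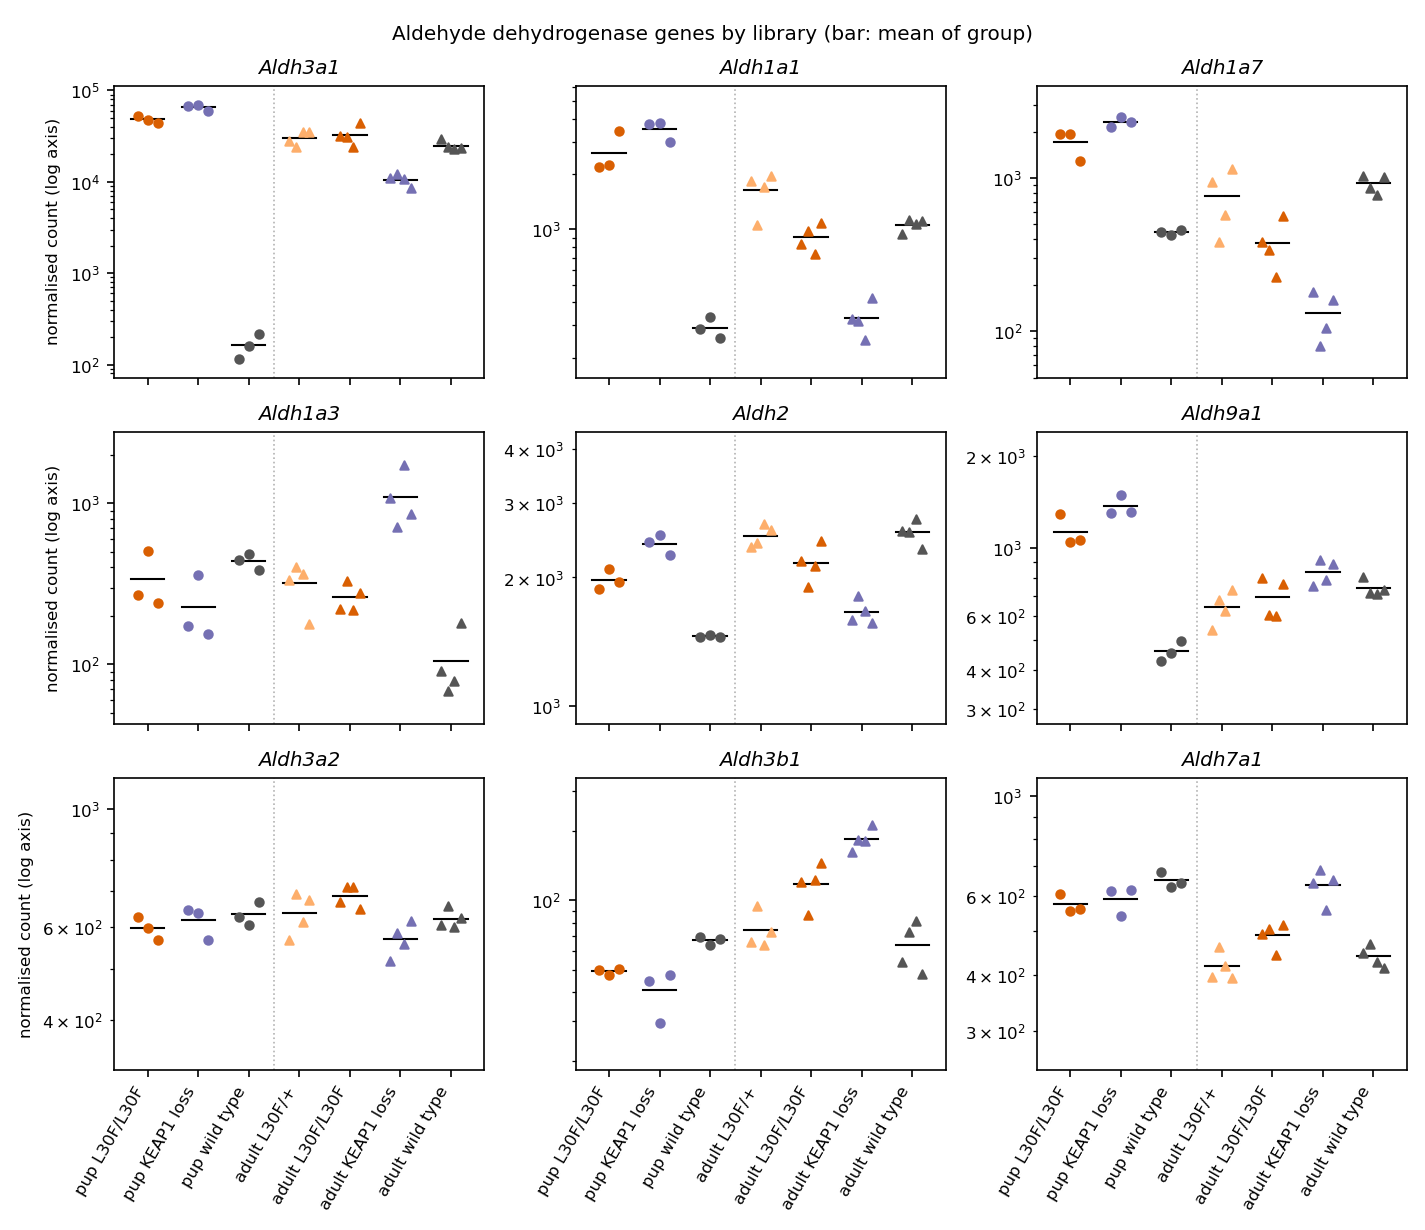
Normalised count of each of the 9 genes in every library (log axis), pups as circles and adults as triangles, with a bar at the mean of each group; pup and adult values were normalised separately. For Aldh3a1 every mutant library of either age, and every wild-type adult, is at 8592.9 or above, against 114.8 to 216.5 in wild-type pups; for Aldh1a3 the KEAP1-deficient adults, from 713.3 to 1735.3, lie above every other adult library.

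Aldh3a1 encodes a cytosolic enzyme for aromatic and medium-chain aldehydes that is abundant in the mammalian cornea. It had 52699, 47679 and 43868 normalised counts in L30F/L30F pups and 67505, 69881 and 60001 in KEAP1-deficient pups, against 114.8, 160.1 and 216.5 in wild-type pups. Mutant and wild-type libraries were separated by more than 2 orders of magnitude. The rise was 301-fold in L30F/L30F pups (log2 fold change 8.23, SE 0.20, adjusted p = 4.9e-09) and 412-fold in KEAP1-deficient pups (8.69, SE 0.20, adjusted p = 2.4e-09). Among the 21007 genes tested, it had the 18th highest log2 fold change in the first comparison and the 23rd highest in the second.

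Aldh1a1, a cytosolic retinal dehydrogenase, had 2180.8, 2251.3 and 3428.9 normalised counts in L30F/L30F pups and 3768.7, 3784.2 and 3003.2 in KEAP1-deficient pups, against 285.8, 334.4 and 255.0 in wild type. Its rise was 8.81-fold with L30F/L30F (log2 fold change 3.14, SE 0.18, adjusted p = 1.1e-06) and 12.0-fold with KEAP1 loss (3.59, SE 0.18, adjusted p = 3e-07). Aldh1a7, a copy of Aldh1a1 found in rodents, had 1924.7, 1929.0 and 1287.3 counts in L30F/L30F pups and 2140.9, 2489.7 and 2315.3 in KEAP1-deficient pups, against 444.2, 422.5 and 461.2 in wild type, which is 3.8-fold and 5.21-fold higher (1.93 and 2.38 on the log2 scale, SE 0.14 each, adjusted p = 4.3e-06 and 6.4e-07). No mutant library of either gene met the wild-type range. L30F/L30F library 3 had the highest Aldh1a1 and the lowest Aldh1a7 count of its group. The transcripts of both genes share 281 stretches of 31 bases (11.3% of those of Aldh1a1 and 13.8% of those of Aldh1a7), so some reads may have been assigned to the other copy.

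Aldh9a1, whose product makes the carnitine precursor gamma-butyrobetaine, had 1289.1, 1042.8 and 1059.9 normalised counts in L30F/L30F pups and 1301.3, 1493.1 and 1311.0 in KEAP1-deficient pups, against 428.2, 454.5 and 499.7 in wild type. It was 2.44-fold higher with L30F/L30F (log2 fold change 1.29, SE 0.10, adjusted p = 5.7e-06) and 2.97-fold higher with KEAP1 loss (1.57, SE 0.10, adjusted p = 9.1e-07). Aldh2, the mitochondrial acetaldehyde dehydrogenase, moved the least of the 5: 1881.9, 2097.5 and 1948.9 in L30F/L30F pups and 2424.6, 2514.6 and 2256.9 in KEAP1-deficient pups, against 1450.2, 1466.6 and 1450.4 in wild type. The 3 wild-type libraries were within a narrow span, and rises of 1.36-fold (0.44, SE 0.07, adjusted p = 0.00057) and 1.65-fold (0.72, SE 0.07, adjusted p = 1.2e-05) passed the test.

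Aldh1a3, the other retinal dehydrogenase among the 9, went the other way. It had 269.0, 504.7 and 239.6 normalised counts in L30F/L30F pups and 173.9, 356.6 and 154.4 in KEAP1-deficient pups, against 443.3, 482.9 and 383.4 in wild type. In each mutant group library 2 was well above its partners, and L30F/L30F library 2 exceeded all wild-type libraries. The log2 fold change was -0.44 with L30F/L30F (SE 0.36, adjusted p = 0.37) and -1.03 with KEAP1 loss (SE 0.36, adjusted p = 0.042). Under the alternative settings listed at the end, the L30F/L30F value ranged from -0.90 to -0.25 and passed in 1 (adjusted p = 0.0036). The KEAP1 loss value passed under each of these settings (-1.33 to -1.01). The KEAP1 loss call ended without wild-type library 1, 2 or 3 (-1.01, -0.95 and -1.12, adjusted p = 0.092, 0.11 and 0.068) and without KEAP1-deficient library 1 or 3 (-0.89 and -0.80, adjusted p = 0.12 and 0.13). KEAP1-deficient library 2, the one with stomach markers, was the highest of its group, and without it the difference was -1.40 (adjusted p = 0.0051).

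Aldh3b1, which encodes a membrane-bound enzyme for medium- and long-chain aldehydes, had the lowest level per kilobase of the 9 in all 3 pup groups. It had 49.8, 47.3 and 50.2 counts in L30F/L30F pups and 44.8, 29.3 and 47.5 in KEAP1-deficient pups, against 69.4, 64.0 and 67.6 in wild type. The groups did not overlap; the fall passed the test with KEAP1 loss (log2 fold change -0.74, SE 0.21, adjusted p = 0.013), while the L30F/L30F value did not (-0.44, SE 0.21, adjusted p = 0.12). Of its 31-base stretches, 16.2% occur in other genes, mostly in Aldh3b3.

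Aldh3a2, the fatty aldehyde dehydrogenase of the endoplasmic reticulum, and Aldh7a1, an enzyme of lysine breakdown, were called in neither pup comparison. Aldh3a2 ranged from 567.4 to 624.6 in L30F/L30F pups and from 566.9 to 644.3 in KEAP1-deficient pups, against 604.8 to 668.3 in wild type, and Aldh7a1 from 554.0 to 605.7 and from 539.5 to 616.6, against 627.0 to 678.4. The 95% interval of the log2 fold change of Aldh3a2 ran from -0.27 to 0.10 with L30F/L30F and from -0.22 to 0.15 with KEAP1 loss, so changes in Aldh3a2 beyond about that size lie outside these intervals. Those of Aldh7a1 ran from -0.36 to 0.01 and from -0.32 to 0.05. Reads of Aldh7a1 and of Phax, a gene that overlaps it on the opposite strand, could be mixed if strand was not used in counting, which is not given in the sources used here.

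**Figure D3:**
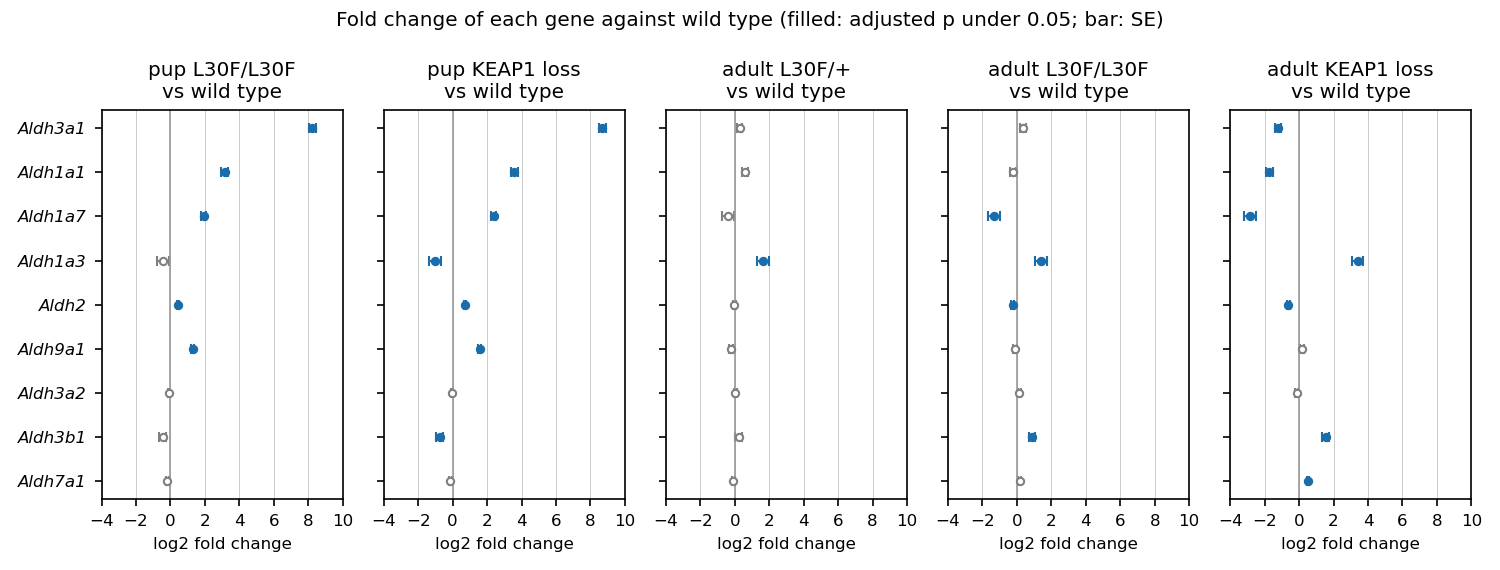
Log2 fold change of each gene against wild type with its standard error, in 5 panels: L30F/L30F pups, KEAP1-deficient pups, L30F/+ adults, L30F/L30F adults and KEAP1-deficient adults. Filled points passed an adjusted p of 0.05; Aldh3a1 is at -1.24 and Aldh1a3 at 3.40 in KEAP1-deficient adults, against Aldh3a1 points at 8.23 and 8.69 in the mutant pups.

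A direct comparison asked whether the mutation differs from the loss of KEAP1. In pups 1 of the 9 genes was called, where 4.17% of all genes were (1.76% higher, 2.4% lower): Aldh2 was lower in L30F/L30F than in KEAP1-deficient pups (log2 fold change -0.28, SE 0.07, adjusted p = 0.049), and this call ended in each of the 6 fits without 1 of the compared libraries (adjusted p = 0.06 to 0.14). Aldh3a1 was lower in all 3 L30F/L30F libraries than in any KEAP1-deficient library, at -0.45 (SE 0.20, adjusted p = 0.21, 95% interval -0.90 to -0.01). The differences of Aldh1a1 (-0.45, adjusted p = 0.18), Aldh1a7 (-0.46, adjusted p = 0.099) and Aldh9a1 (-0.28, adjusted p = 0.14) had the same sign and did not pass. Without L30F/L30F library 3 the difference of Aldh1a1 was -0.66 and passed (adjusted p = 0.035).

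Cell-type markers moved with the pup genotypes as well. The 8 squamous epithelium markers summed to 222000 to 261000 normalised counts in L30F/L30F pups and 296000 to 331000 in KEAP1-deficient pups, against 133000 to 157000 in wild type, with 6 higher and 2 lower in each comparison. The 6 fibroblast markers (such as Dcn and Col1a1) summed to 87200 to 130000 and 57500 to 111000, against 275000 to 291000, with 5 of 6 lower in each. Smooth muscle markers summed to 12400 to 49900 in L30F/L30F pups (2 of 6 lower) and 13600 to 20800 in KEAP1-deficient pups (3 of 6 lower), against 46500 to 48600 in wild type. Red blood cell markers summed to 17600 to 97600 in L30F/L30F pups (0 of 5 called) and 5630 to 8600 in KEAP1-deficient pups (4 of 5 lower), against 40300 to 93600 in wild type. Endothelium and nerve markers were each lower for 3 of 5 genes with KEAP1 loss. Adipose markers summed to 6310 to 8670 in L30F/L30F and 6440 to 11800 in KEAP1-deficient pups, against 2790 to 6430 in wild type. In each comparison 1 of these 5 was called higher and 1 lower, with median log2 fold changes of -1.52 and -1.86. Liver markers summed to 266 to 3620 in L30F/L30F pups and 64.3 to 3820 in KEAP1-deficient pups, against 7150 to 37500 in wild-type pups. In such bulk tissue, fewer cells of a type and less RNA per cell cannot be told apart, and the part of these shifts in the values of the 9 genes was not tested.

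In adults the question was the same, 1 week after the alleles were recombined, with L30F also tested in 1 copy. Of the 9 genes, 3 rose and 4 fell in KEAP1-deficient adults, where 46.8% of all 19857 genes were called (24.1% higher, 22.7% lower); 2 rose and 2 fell in L30F/L30F adults, where 22.3% were called (11.8% higher, 10.4% lower); and 1 rose and none fell in L30F/+ adults, where 9.7% were called (4.8% higher, 4.9% lower). The 3 comparisons share the same 4 wild-type libraries. The median log2 fold change of the 9 was -0.13 with KEAP1 loss, 0.14 with L30F/L30F and 0.03 with L30F/+, beside -0.01, -0.01 and 0.01 over all genes.

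Aldh1a3 rose in every adult mutant group. It had 332.6, 404.1, 364.5 and 177.8 normalised counts in L30F/+, 219.3, 330.0, 217.0 and 279.0 in L30F/L30F and 1072.6, 713.3, 1735.3 and 865.3 in KEAP1-deficient adults, against 91.4, 68.4, 78.4 and 180.8 in wild type. The L30F/L30F and KEAP1-deficient libraries were all above the wild-type ones, and L30F/+ library 4 was just below the highest wild-type library. The rise was 3.13-fold in L30F/+ (log2 fold change 1.64, SE 0.33, adjusted p = 0.0078), 2.63-fold in L30F/L30F (1.40, SE 0.33, adjusted p = 0.0076) and 10.6-fold in KEAP1-deficient adults (3.40, SE 0.33, adjusted p = 9.7e-07). The L30F/+ call ended with striated muscle markers (1.46, adjusted p = 0.26) or the Y-linked gene Ddx3y (1.47, adjusted p = 0.056) as a covariate. Between mutants, Aldh1a3 was lower in L30F/L30F than in KEAP1-deficient adults (-2.0, SE 0.33, adjusted p = 0.00046), and L30F/L30F against L30F/+ gave -0.25 (SE 0.33, adjusted p = 0.65).

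Aldh3a1, by contrast, was lower in KEAP1-deficient adults. Its counts were 27829, 23791, 35363 and 34796 in L30F/+, 31700, 30917, 23816 and 43613 in L30F/L30F and 11046, 12028, 10612 and 8592.9 in KEAP1-deficient adults, against 29592, 24176, 22606 and 23433 in wild type. No KEAP1-deficient library reached the lowest of any other group, while both L30F groups overlapped with wild type. Aldh3a1 fell 2.36-fold with KEAP1 loss (log2 fold change -1.24, SE 0.17, adjusted p = 2e-05). The changes with L30F/+ (0.28, adjusted p = 0.32, 95% interval -0.08 to 0.64) and L30F/L30F (0.36, adjusted p = 0.14, 95% interval -0.002 to 0.72) did not pass, although the second did without L30F/L30F library 3 (0.49, adjusted p = 0.044). Nqo1 rose in the same 3 comparisons, as given above. L30F/L30F against KEAP1-deficient adults gave 1.6 for Aldh3a1 (SE 0.17, adjusted p = 8.2e-06).

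Aldh1a1 and Aldh1a7 were also lowest in KEAP1-deficient adults. Aldh1a1 had 1844.7, 1060.4, 1694.3 and 1944.3 counts in L30F/+, 831.4, 980.0, 735.2 and 1089.7 in L30F/L30F and 324.5, 315.5, 248.6 and 423.6 in KEAP1-deficient adults, against 940.2, 1130.9, 1066.4 and 1117.1 in wild type. It fell 3.29-fold with KEAP1 loss (log2 fold change -1.72, SE 0.19, adjusted p = 2.2e-06), and 3 of 4 L30F/+ libraries were above every wild-type library (0.59, SE 0.19, adjusted p = 0.058). That L30F/+ difference passed without L30F/+ library 2 (0.78, adjusted p = 0.0093). Aldh1a1 gave -0.24 with L30F/L30F (SE 0.19, adjusted p = 0.38).

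Aldh1a7 had 943.0, 381.2, 575.3 and 1145.6 counts in L30F/+, 384.9, 341.6, 227.8 and 564.9 in L30F/L30F and 180.8, 79.9, 105.9 and 159.4 in KEAP1-deficient adults, against 1034.4, 867.2, 779.0 and 1017.6 in wild type. It fell 7.30-fold with KEAP1 loss (log2 fold change -2.87, SE 0.34, adjusted p = 7.6e-06) and 2.54-fold with L30F/L30F (-1.35, SE 0.34, adjusted p = 0.012), with no overlap between either mutant group and wild type. The 4 L30F/+ libraries spread over the L30F/L30F and wild-type ranges (-0.40, SE 0.34, adjusted p = 0.51).

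Aldh2 had 1590.4, 1813.2, 1668.5 and 1562.5 counts in KEAP1-deficient adults, against 2576.6, 2565.0, 2746.4 and 2334.2 in wild type. The fall was 1.54-fold (log2 fold change -0.62, SE 0.08, adjusted p = 9.5e-06), opposite to the rise in pups. In L30F/L30F adults Aldh2 ranged from 1903.5 to 2442.7 and was lower than in wild type by a log2 difference of -0.24 (SE 0.08, adjusted p = 0.038). This call ended without any of wild-type libraries 1, 2 and 3 or L30F/L30F libraries 1, 2 and 3 (-0.25 to -0.18, adjusted p = 0.065 to 0.12). In L30F/+ adults it ranged from 2354.1 to 2671.7 and gave -0.03 (adjusted p = 0.87).

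Aldh3b1 rose in adults with 2 mutant alleles of either kind. It had 65.8, 94.6, 64.2 and 72.6 counts in L30F/+, 119.9, 86.2, 122.3 and 144.7 in L30F/L30F and 162.8, 183.7, 181.7 and 212.5 in KEAP1-deficient adults, against 54.2, 72.5, 81.5 and 47.7 in wild type. The rise was 1.85-fold with L30F/L30F (log2 fold change 0.88, SE 0.19, adjusted p = 0.004) and 2.92-fold with KEAP1 loss (1.54, SE 0.19, adjusted p = 7e-06), with no overlap with wild type, and L30F/+ gave 0.23 (SE 0.19, adjusted p = 0.49). Aldh7a1 rose 1.44-fold in KEAP1-deficient adults, with 640.6, 685.3, 557.9 and 648.4 counts against 446.4, 468.9, 426.8 and 414.0 in wild type (0.52, SE 0.08, adjusted p = 7.1e-05). Its changes in L30F/+ (-0.07, adjusted p = 0.62) and L30F/L30F (0.16, adjusted p = 0.19) did not pass.

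Aldh3a2 and Aldh9a1 passed in none of the 3 adult comparisons with wild type. Aldh3a2 ranged from 566.6 to 690.7 in L30F/+, 648.6 to 713.8 in L30F/L30F and 516.6 to 615.7 in KEAP1-deficient adults, against 599.2 to 656.7 in wild type, and its log2 fold changes lay between -0.13 and 0.14. Aldh9a1 ranged from 542.2 to 732.1, 600.7 to 796.7 and 749.8 to 917.7, against 710.6 to 807.4, with log2 fold changes between -0.21 and 0.17. Aldh3a2 was thus called in none of the 5 comparisons with wild type over both ages. It was higher in L30F/L30F than in KEAP1-deficient adults (0.27, SE 0.08, adjusted p = 0.015), a call that ended without KEAP1-deficient library 1 (0.23, adjusted p = 0.055).

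The adult mutants were also set against each other. Against KEAP1-deficient adults, 8 of the 9 genes were called in L30F/L30F adults (5 higher, 3 lower, where 26.4% of all genes were called, 12.9% higher and 13.5% lower) and 8 in L30F/+ adults (4 higher, 4 lower, where 44.8% were called, 21.6% higher and 23.2% lower). None of these 16 calls held with the striated muscle markers as a covariate, and Aldh1a7 then gave -0.053 in L30F/L30F and Aldh9a1 0.16 in L30F/+. Without that covariate Aldh1a1, Aldh1a7, Aldh2 and Aldh3a1 were higher in both L30F genotypes than in KEAP1-deficient adults, by 1.48, 1.52, 0.38 and 1.6 on the log2 scale in L30F/L30F and by 2.30, 2.47, 0.60 and 1.52 in L30F/+. Aldh1a3, Aldh3b1 and Aldh7a1 were lower in both, with log2 differences of -2.0, -0.66 and -0.37 in L30F/L30F and of -1.76, -1.32 and -0.60 in L30F/+. The Aldh3b1 difference between L30F/L30F and KEAP1 loss did not pass without L30F/L30F library 2 (-0.52, adjusted p = 0.065) or KEAP1-deficient library 4 (-0.59, adjusted p = 0.057). Aldh9a1 was lower in L30F/+ than in KEAP1-deficient adults (-0.38, SE 0.11, adjusted p = 0.01).

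Allele dose was tested in 2 ways. Between L30F/L30F and L30F/+ adults, 2 of the 9 genes were called, where 16.4% of all genes were (8.07% higher, 8.29% lower): Aldh1a1 was lower in L30F/L30F (log2 fold change -0.83, SE 0.19, adjusted p = 0.0077) and Aldh3b1 was higher (0.66, SE 0.19, adjusted p = 0.028). The Aldh3b1 call ended without L30F/+ library 1, 3 or 4 or L30F/L30F library 1, 3 or 4 (0.55 to 0.65, adjusted p = 0.054 to 0.077). Aldh1a7 gave -0.95 (adjusted p = 0.072) and passed without L30F/+ library 2 (-1.24, adjusted p = 0.018) or L30F/L30F library 4 (-1.17, adjusted p = 0.035). Aldh1a1 also stood 0.71 above the midpoint of L30F/L30F and wild type in L30F/+ adults (SE 0.16, adjusted p = 0.014), the only one of the 9 to pass that test, where 8.97% of all genes did (5.03% higher, 3.95% lower). With Ddx3y as a covariate neither Aldh1a1 difference passed (-0.67 between the genotypes, adjusted p = 0.082, and 0.56 from the midpoint, adjusted p = 0.16), and neither did with the striated muscle markers as one (-0.48, adjusted p = 0.19, and 0.31, adjusted p = 0.63). For Aldh1a3 the difference from the midpoint was 0.95 (SE 0.29, adjusted p = 0.052), and it passed without wild-type library 4 (1.09, adjusted p = 0.013), L30F/+ library 4 (1.20, adjusted p = 0.02) or, barely, L30F/L30F library 2 (1.01, adjusted p = 0.05).

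Adult groups also differed in their tissue markers, KEAP1-deficient libraries among them. Striated muscle markers (such as Acta1 and Ckm) summed to 93300 to 135000 normalised counts in them, to 303000 to 433000 in L30F/+ and to 213000 to 297000 in L30F/L30F adults, against 231000 to 265000 in wild type; 7 of the 8 were lower with KEAP1 loss. Squamous epithelium markers summed to 288000 to 357000 with KEAP1 loss, against 935000 to 1250000 in wild type, where 3 of the 8 were called higher and 2 lower. Leukocyte markers summed to 7890 to 10400, against 2460 to 4600, with 5 of 6 higher, and fibroblast markers to 155000 to 208000, against 76400 to 91000, with 4 of 6 higher. Endothelium markers summed to 4810 to 5550, against 2660 to 3900 (4 of 5 higher), and smooth muscle markers to 8700 to 19700, against 16600 to 30800 (5 of 6 lower). The L30F groups moved too. Squamous markers summed to 593000 to 867000 in L30F/+ and 542000 to 683000 in L30F/L30F adults, both below wild type. Of the 8, 1 was called lower and none higher in L30F/+, and 2 were called higher and 2 lower in L30F/L30F. Leukocyte markers summed to 4260 to 7070 in L30F/L30F adults (4 of 6 higher than in wild type). Adipose markers summed to 1730 to 2390 in KEAP1-deficient adults, against 4940 to 9580 in wild type, with 1 of 5 called lower. L30F/L30F had lower adipose markers than L30F/+ (3020 to 5920, against 6890 to 9850, 3 of 5 lower) and lower nerve markers (300 to 420, against 709 to 1020, 3 of 5 lower). Apart from striated muscle, the part of these markers in the values of the 9 genes was not tested. With the mean log2 level of the striated muscle markers as a covariate, 2 of the 7 KEAP1 loss calls among the 9 genes held, Aldh1a3 and Aldh2, beside 3 of the 4 L30F/L30F calls; Aldh1a1 (-0.70), Aldh1a7 (-1.43), Aldh3a1 (-1.30), Aldh3b1 (1.06) and Aldh7a1 (0.67) kept their direction with an adjusted p of 0.32, 0.32, 0.1, 0.21 and 0.074. Muscle marker level and KEAP1 genotype go together in these libraries and cannot be told apart well by that fit.

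Pup and adult effects of the same genotype were then compared directly. The L30F/L30F effect, adult minus pup, differed for 8 of the 9 genes (3 higher in adults, 5 lower), where 33.5% of 19031 genes differed (13.6% higher, 19.9% lower). The KEAP1 loss effect differed for 8 as well (3 higher, 5 lower), where 47.1% did (20.6% higher, 26.5% lower). Aldh3a1 showed the largest gap of the 9: the difference was -7.88 for L30F/L30F (log2, SE 0.26, adjusted p = 3.1e-15) and -9.93 for KEAP1 loss (SE 0.26, adjusted p = 4.4e-17). For KEAP1 loss, 6 genes were called in both ages and in opposite directions, as were 11.1% of all genes: Aldh3a1, Aldh1a1, Aldh1a7 and Aldh2 fell in adults and rose in pups, and Aldh1a3 and Aldh3b1 rose in adults and fell in pups. With L30F/L30F this held for 2 genes, Aldh1a7 and Aldh2, both lower in adults and higher in pups, and for 4.94% of all genes. The pup call of Aldh1a3 with KEAP1 loss and the adult call of Aldh2 with L30F/L30F are the calls described above that ended without any 1 of several libraries. Adult KEAP1 loss calls of Aldh1a1, Aldh1a7, Aldh3a1 and Aldh3b1 ended with the striated muscle covariate (adjusted p = 0.32, 0.32, 0.1 and 0.21). Of the 6 genes with KEAP1 loss, only Aldh2 kept both calls in every alternative run and without each library in turn. Aldh9a1 had a difference of -1.4 for both genotypes (SE 0.15 each, adjusted p = 4.9e-08 for L30F/L30F and 2.5e-08 for KEAP1 loss). Aldh3a2 differed in neither (0.23 for L30F/L30F, adjusted p = 0.13, and -0.09 for KEAP1 loss, adjusted p = 0.54). Pups and adults differ in age, in the kind of Cre, in tamoxifen treatment and in the time since recombination. These cannot be told apart, and each age has its own wild type.

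**Figure D4:**
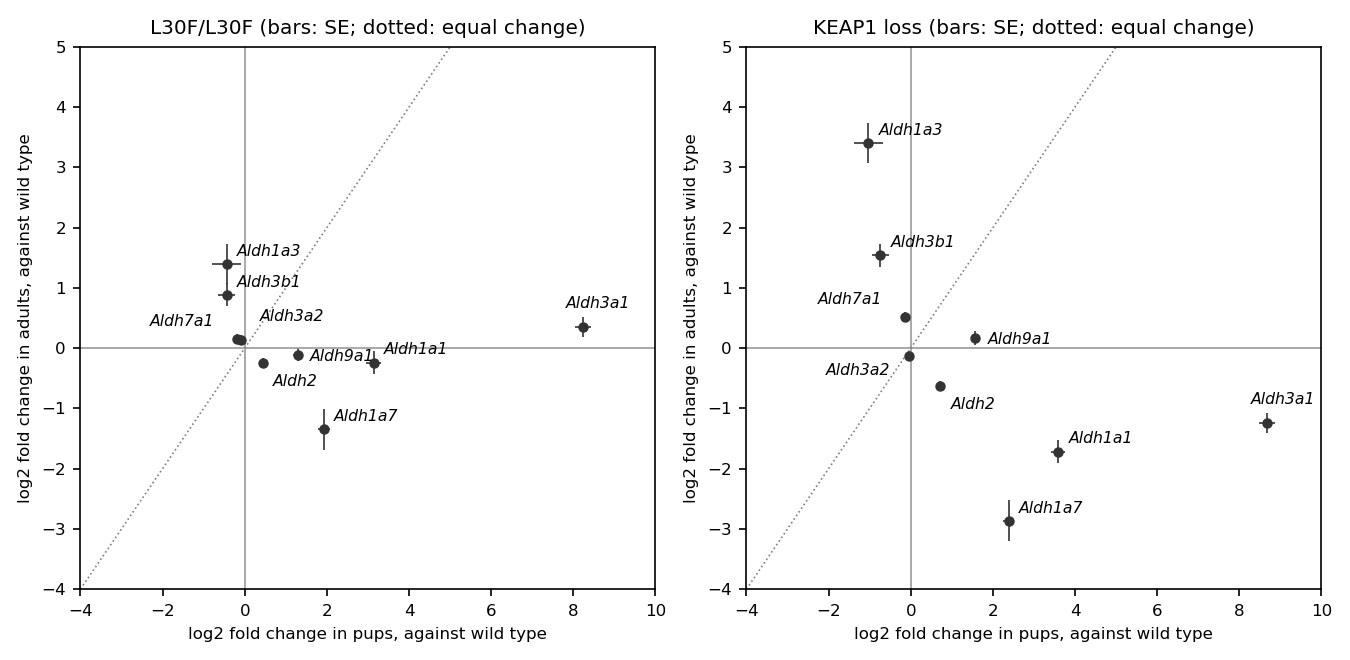
Log2 fold change against wild type in pups (horizontal) and adults (vertical) for the 9 genes, with standard errors, for L30F/L30F (left) and KEAP1 loss (right); the dotted line marks equal change. No gene lies near the line at a large change: with KEAP1 loss Aldh3a1 is at -1.24 in adults and 8.69 in pups, and Aldh1a3 at 3.40 in adults and -1.03 in pups.

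The 12 other aldehyde dehydrogenase genes listed gave a background within the family. In L30F/L30F pups 5 of 12 rose and 3 fell, in KEAP1-deficient pups 5 and 2; in adults, where 11 were tested, 2 rose and none fell with L30F/+, 4 rose and 1 fell with L30F/L30F, and 6 rose and 3 fell with KEAP1 loss. Their median log2 fold changes were 0.22, 0.10, 0.08, 0.22 and 0.40 in these 5 comparisons. Of all genes, 39.2%, 49.5%, 9.7%, 22.3% and 46.8% were called in the same order. Aldh1l1 and Aldh1l2, the cytosolic and mitochondrial 10-formyltetrahydrofolate dehydrogenases of folate metabolism, rose in all 5 comparisons with wild type. Aldh1l2 rose by 2.70 in L30F/L30F pups, 3.27 in KEAP1-deficient pups, 0.92 in L30F/+ adults, 1.73 in L30F/L30F adults and 1.37 in KEAP1-deficient adults on the log2 scale. None of the 9 genes described above rose in all 5. Aldh3b2, the second in mean level per kilobase in all 7 groups, rose 2.65 in L30F/L30F and 2.91 in KEAP1-deficient pups and fell by 0.70 in KEAP1-deficient adults, although 30.7% of its 31-base stretches occur in other genes. Aldh5a1, which degrades the GABA product succinic semialdehyde, rose by 1.76 and 2.02 in the 2 pup groups and by 0.82 in KEAP1-deficient adults. Aldh1a2, another retinal dehydrogenase gene of the listed family, fell by 0.69 and 1.41 in pups, and Aldh1b1, a mitochondrial enzyme, by 1.6 and 1.91.

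Alcohol dehydrogenases make the aldehydes that this family oxidises. Of the 5 alcohol-metabolising genes tested, 2 rose in each pup comparison, Adh7 and Adh1. Among all genes, 22% were called higher in L30F/L30F and 26.3% in KEAP1-deficient pups. Adh7, the class IV enzyme of the upper digestive tract that oxidises ethanol and retinol, averaged 50730 in L30F/L30F and 59720 in KEAP1-deficient pups, against 762.1 in wild type (log2 fold change 6.06 and 6.29, SE 0.11 each, adjusted p = 2e-10 and 1.2e-10). In adults it averaged 20090 in L30F/+, 31350 in L30F/L30F and 22630 in KEAP1-deficient esophagus, against 5951 in wild type, a rise of 1.80, 2.42 and 1.97. Adh7 thus rose in KEAP1-deficient adults, where Aldh3a1, Aldh1a1, Aldh1a7 and Aldh2 fell. Adh1 rose in both pup groups (1.04 and 1.11) and in L30F/+ adults (0.81, adjusted p = 0.046) and fell by 1.20 in KEAP1-deficient adults (SE 0.24, adjusted p = 0.00076).

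Retinoid genes stand around Aldh1a1 and Aldh1a3 in vitamin A metabolism. Of 18 tested in pups, 8 rose and 6 fell in each mutant group; of 16 tested in adults, 4 fell and none rose with L30F/+, 4 rose and 6 fell with L30F/L30F, and 6 rose and 7 fell with KEAP1 loss. Median log2 fold changes of the list were 0.13, -0.18, 0.09, -0.54 and -0.25 in the same order. Over all genes, 39.2%, 49.5%, 9.7%, 22.3% and 46.8% were called in these comparisons. Cyp26b1, which degrades retinoic acid, averaged 8633 in L30F/L30F and 13390 in KEAP1-deficient pups, against 81.0 in wild type (log2 fold change 6.76 and 7.38, SE 0.18 each, adjusted p = 5.8e-09 and 2.4e-09), and rose by 1.14 in L30F/L30F and 1.5 in KEAP1-deficient adults. The retinol-retinal interconverting enzymes Rdh11 (1.98 and 2.33) and Dhrs9 (1.52 and 1.90) rose in both pup groups, as did the nuclear receptor Rxra (0.89 and 1.16). Dhrs3, which reduces retinal back to retinol, fell in all 5 comparisons, by 0.88 to 1.05 on the log2 scale. In adults Crabp2, which carries retinoic acid to its receptors, fell by 1.53 in L30F/+, 2.25 in L30F/L30F and 1.43 in KEAP1-deficient esophagus, and the receptor Rarg by 0.53, 0.66 and 0.86. The retinol dehydrogenase Rdh10 (1.42) rose with KEAP1 loss in adults beside Aldh1a3, and the retinol dehydrogenase Sdr16c5 fell by 1.57 there.

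For genes called in at least 4 of the 5 comparisons with wild type, the 3 genes with the most similar fold changes were found by the root mean square difference over the 5 comparisons, among 13480 genes. For Aldh1a3 these were Cxcr4 (0.581), Npy1r (0.593) and Pmaip1 (0.604), for Aldh1a7 they were 9930012K11Rik (0.234), Muc15 (0.324) and Lipk (0.363), and for Aldh2 they were Clpb (0.043), Acsl1 (0.043) and Prkar2a (0.049), all on the log2 scale. Likeness of this kind is a description over 5 values that share wild-type libraries. The fold changes of Aldh1a3 reached 3.40, with an SE of 0.33 to 0.36. Those of Aldh2 reached 0.72 at most, with an SE of 0.07 to 0.08. The distances of 0.581 and 0.043 to their nearest genes are on these unlike scales, so they do not rank how well each gene is matched.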

How the data were processed

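RNA-seq of whole mouse esophagus was analysed from 25 libraries in 7 genotype groups. The authors deposited log2 values in 1 table per experiment, made with Salmon and GRCm39 per the submitters' processing notes, which name no versions in the sources used here. The lowest deposited log2 value is 2. The steps between values match log2(normalised count + 4): with 4 subtracted and 1 scale factor per library, 100% of the values below 1000 reads came within 0.1 of a whole read. The tables were normalised separately, so levels are compared within a table, and shares within a library.

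Normalised counts were recovered from the deposited values, and genotypes were compared with limma 3.58.1 (statmod 1.5.0, R 4.3.3; trend and robust settings) on log2(value + 1), a scale that understates changes of low genes. Genes needed a value of at least 1 in at least 3 pup or 4 adult libraries (21007 and 19857 genes). All groups of a table shared a fit, and p-values were Benjamini-Hochberg adjusted over all genes tested and called under 0.05. Pup and adult effects were set against each other by subtracting the pup log2 fold change from the adult one, with Welch-Satterthwaite degrees of freedom, over 19031 genes. The test was checked on simulated data. Intervals are 95%.

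Transcript lengths and shared 31-base stretches came from GENCODE vM21 and promoters from RefSeq, both of GRCm38, while the files use GRCm39. Named outside the 9 genes are the other listed family members, up to 4 called genes per list and comparison with the smallest adjusted p, and the likeness genes (mean count of at least 50 in both tables); 1 gene that this rule names is not reported here. The 9 genes and all lists were chosen with earlier results of these data known.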

Additional observations from a re-analysis of the deposited data

Results flagged for a closer look

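The tests of the difference between pup and adult effects called 16 values for the 9 genes, adult minus pup on the log2 scale. For L30F/L30F these were -3.38 for Aldh1a1, 1.84 for Aldh1a3, -3.27 for Aldh1a7, -0.68 for Aldh2, -7.88 for Aldh3a1, 1.33 for Aldh3b1, 0.33 for Aldh7a1 and -1.4 for Aldh9a1. The adjusted p was between 3.1e-15 for Aldh3a1 and 0.029 for Aldh7a1. The Aldh7a1 difference did not pass with reads thinned to equal depth (0.27, adjusted p = 0.083), with muscle markers (0.28, adjusted p = 0.097) or Ddx3y (0.32, adjusted p = 0.056) as a covariate, or without any 1 of 8 libraries: L30F/L30F pups 2 and 3, wild-type pups 1 and 3, L30F/L30F adults 2 and 4, and wild-type adults 3 and 4 (0.30 to 0.34, adjusted p = 0.051 to 0.073).

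For KEAP1 loss the values were -5.3 for Aldh1a1, 4.43 for Aldh1a3, -5.25 for Aldh1a7, -1.34 for Aldh2, -9.93 for Aldh3a1, 2.28 for Aldh3b1, 0.66 for Aldh7a1 and -1.4 for Aldh9a1, with an adjusted p of 4.1e-05 or less. All 8 passed in every alternative run and without each library in turn.

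No adult library passed Dixon's 95% criterion (the gap to its nearest neighbour as a part of its group's range) in any of the 36 gene and group combinations examined, a check that chance alone trips in about 1 of 20. Aldh1a3 in wild-type adult library 4 (180.8, against 68.4 to 91.4 in the 3 others) did not reach it. The 36 combinations leave out the pup groups, where some libraries stood apart from close neighbours. Examples are Aldh1a7 in L30F/L30F library 3 (1287.3, against 1924.7 and 1929.0) and Aldh1a1 in KEAP1-deficient library 3 (3003.2, against 3768.7 and 3784.2). Another is Aldh2 in wild-type pup library 2 (1466.6, against 1450.2 and 1450.4).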

How the results depend on the processing

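For L30F/L30F pups, KEAP1-deficient pups and L30F/L30F adults against wild type, and for both pup and adult effect differences, the number of the 9 genes called stayed within 1.5 times the value reported under every alternative run (offsets of 0.1, 4 and 5, no filter, TMM scaling, limma-voom, equal depth, both covariates, a replicate block, only the groups compared where this applies, and leaving out each library). Elsewhere it moved. L30F/L30F against KEAP1-deficient pups gave 0 in place of 1 with TMM scaling, with only the groups compared and with the replicate block, and 0 to 1 without 1 library. L30F/+ against wild type gave 2 in place of 1 with limma-voom and 0 with either covariate, and 1 to 2 without 1 library. With the striated muscle covariate KEAP1 loss against wild type gave 2 in place of 7, L30F/L30F against KEAP1 loss 0 in place of 8, L30F/+ against KEAP1 loss 0 in place of 8, L30F/L30F against L30F/+ 0 in place of 2, and the midpoint test 0 in place of 1. L30F/L30F against L30F/+ gave 1 with limma-voom, Ddx3y or only the groups compared, and 1 to 4 without 1 library; the midpoint test gave 0 with Ddx3y and 1 to 2 without 1 library. Called signs turned for Aldh1a7 in L30F/L30F against KEAP1-deficient adults (-0.053, adjusted p = 0.99) and Aldh9a1 in L30F/+ against KEAP1-deficient adults (0.16, adjusted p = 0.91), both with the muscle covariate; the cause was not tested. Of the 2115 recomputed values for single genes, 2020 stayed on their side of the threshold, among them 17 uncalled values that turned sign; 74 no longer passed, 19 newly passed, and the 2 above turned from a called sign.

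Replicate numbers did not clearly pair the libraries. Deviations of same-numbered libraries from their group means correlated between -0.104 and 0.219 in pups and between -0.074 and 0.095 in adults. For differently numbered libraries of different groups these correlations ran from -0.122 to 0.097 in pups and from -0.135 to 0.163 in adults. With the replicate block, L30F/+ against wild type gave 2 of the 9 genes, Aldh1a1 joining (adjusted p = 0.044), Aldh2 in L30F/L30F adults did not pass (adjusted p = 0.057), Aldh1a7 passed between L30F/L30F and L30F/+ adults (-0.95, adjusted p = 0.0087), and L30F/L30F against KEAP1-deficient pups called 222 genes in place of 875.

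Counts over all genes moved by more than 1.5 times in 8 comparisons. L30F/L30F against KEAP1-deficient pups called 155 with only the groups compared, 172 and 63 without L30F/L30F libraries 1 and 2, and 177, 47 and 392 without KEAP1-deficient libraries 1, 2 and 3; 407 higher and 371 lower with TMM scaling stand beside 370 and 505. L30F/+ against wild type called 113 (muscle), 653 (Ddx3y), 798 (only the groups compared) and 624, 1152 and 968 (without wild-type libraries 1, 2 and 3) in place of 1927. L30F/L30F against L30F/+ called 750, 1200 and 1543 in the same order of settings, and 2134 without L30F/L30F library 1, in place of 3249, and the midpoint test 32 and 250 with the covariates and 1145 and 961 without wild-type library 1 and L30F/+ library 3, in place of 1782. With the muscle covariate, KEAP1 loss against wild type called 1285 in place of 9290, L30F/L30F against KEAP1-deficient adults 14 in place of 5248, L30F/+ against KEAP1-deficient adults 20 in place of 8891, and the KEAP1 loss effect difference 3672 in place of 8967. A planned quasi-likelihood test on the recovered reads was not run.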
